A study of Mus musculus with 12 samples.

Results

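The fibroblast growth factor (FGF) ligands and receptors described here are the 7 ligand genes *Fgf3*, *Fgf7*, *Fgf8*, *Fgf9*, *Fgf10*, *Fgf18* and *Fgf20* and the 3 receptor genes *Fgfr1*, *Fgfr2* and *Fgfr3*. They were taken by gene symbol from a table of 27754 genes, and all 10 passed the filter on low values that left 18400 genes for testing. The table held RNA-seq values of the neonatal mouse cochlear sensory epithelium, in which β-catenin had or had not been stabilized by Cre recombination. The questions were how stabilization at each age, and age itself, changed the expression of these genes.

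All pups carried one β-catenin-flox(Exon3) allele, were of a mixed C57BL/6 and CD1 strain, and took up tamoxifen through the milk of an injected mother. Treated pups also carried Sox2-CreER/+, so recombination was limited to Sox2-positive cells and their descendants, and untreated pups had no Cre. P1 pups were exposed at postnatal day 1 and their tissue was taken 72 h later at day 4. P4 pups were exposed at day 4 and their tissue was taken at day 7. At P1 there were 3 treated and 3 untreated libraries and at P4 2 treated and 3 untreated ones, each from both ears of 1 pup. Replicate 2 of the P4 treated group was not analysed here. The values are normalized counts, that is, read counts or estimated counts of each gene scaled for the depth of the library, and they summed to 41.2 to 44.2 M per library.

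FGF ligands are secreted proteins that bind FGF receptors together with heparan sulfate, and the receptor kinases then signal through the Ras and MAP kinase cascade. Sprouty, Spred and Dusp proteins are induced by the pathway and dampen it, and the Etv factors are among its transcriptional effectors. In the inner ear, Fgf3 and Fgf10 act in otic induction and in the patterning of the cochlear duct, Fgf20 and Fgf9 act on the growth of the sensory domain and its mesenchyme, and Fgf8 from inner hair cells acts through Fgfr3 in the forming pillar cells.

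Windows before the RefSeq starts of 4 ligands are shown. *Fgf3*, *Fgf7* and *Fgf18* passed the test between treated ages given below, and *Fgf10* had the highest level among the ligands. *Fgf3* did not pass between untreated ages. *Fgf8*, which passed between untreated ages, had no window in the RefSeq table and is not shown. Each is the stretch from 250 to 31 bases before the RefSeq start of transcription, 220 bases long, from the assembly GRCm38.p6 (mm10), written 5′ to 3′ on the strand of the gene. *Fgf3* lies at chr7:144838362-144838581 on the plus strand, *Fgf7* at chr2:126034408-126034627 on the plus strand, *Fgf10* at chr13:118714449-118714668 on the plus strand and *Fgf18* at chr11:33147431-33147650 on the minus strand. Capitals mark the letters CTTTGA or their reverse complement TCAAAG, the core that TCF/LEF factors, the DNA-binding partners of β-catenin, are known to bind.
Fgf3: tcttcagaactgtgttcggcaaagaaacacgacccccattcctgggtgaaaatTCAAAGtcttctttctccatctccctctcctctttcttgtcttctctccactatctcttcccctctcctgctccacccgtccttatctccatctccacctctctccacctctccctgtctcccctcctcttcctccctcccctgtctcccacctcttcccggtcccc
Fgf7: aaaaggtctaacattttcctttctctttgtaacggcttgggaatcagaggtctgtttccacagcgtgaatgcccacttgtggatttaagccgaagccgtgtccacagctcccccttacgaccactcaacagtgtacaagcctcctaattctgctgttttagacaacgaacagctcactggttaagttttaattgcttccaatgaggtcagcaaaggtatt
Fgf10: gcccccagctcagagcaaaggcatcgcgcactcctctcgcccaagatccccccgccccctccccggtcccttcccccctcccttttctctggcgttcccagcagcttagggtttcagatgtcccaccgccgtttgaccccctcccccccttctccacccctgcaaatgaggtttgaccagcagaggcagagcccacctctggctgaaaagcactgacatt
Fgf18: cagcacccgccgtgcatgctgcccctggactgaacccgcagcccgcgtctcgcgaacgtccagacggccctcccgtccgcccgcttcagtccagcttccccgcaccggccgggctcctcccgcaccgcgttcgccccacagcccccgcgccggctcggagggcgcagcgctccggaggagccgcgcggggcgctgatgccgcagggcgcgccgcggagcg

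The *Fgf3* window held these letters once, beginning 197 bases before the RefSeq start, and the windows of *Fgf7*, *Fgf10* and *Fgf18* did not. The GENCODE annotation begins *Fgf3* at 144838083 and *Fgf10* at 118669791, so their windows lie inside the genes as GENCODE draws them. Of the 10 genes, 7 had a window in the RefSeq table, and *Fgf3* was the one with this match on either strand. The same letters were found in 12.6% of the 32851 windows of that length in the table, so a single match is a description only. The letters CCGGAA of the ETS factors, which occur on either strand in 9.47% of windows, and TATAAA, which occur in 9.95%, were in none of the members' windows. The share of G and C was 78.6% in the *Fgf18* window, 63.2% for *Fgf10*, 54.5% for *Fgf3* and 45% for *Fgf7*, against a median of 51.8% over all windows.

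To compare levels between genes, normalized counts were divided by the length of each gene's exons. On this scale *Fgfr3*, which marks supporting cells such as pillar and Deiters cells, was the most abundant of the 10 genes, with a mean of 3464 normalized counts per kb over the 11 libraries. *Fgf10*, a ligand of the greater epithelial ridge and sensory domain, followed at 2336 per kb and *Fgfr1* at 1183 per kb. *Fgf8* had 534.7 and *Fgfr2* 432.6 per kb. The other 5 ligands had means over all libraries of 53.26 per kb (*Fgf20*) to 161.7 per kb (*Fgf3*). *Fgfr3* exceeded *Fgf10*, *Fgf10* exceeded *Fgfr1*, *Fgfr1* exceeded *Fgf8* and *Fgfr2* exceeded *Fgf3* in 11 of 11 libraries. For the other neighbours the pooled order hid differences between groups. *Fgf18* exceeded *Fgf7* in 6 of 6 P1 libraries and in 0 of 5 P4 libraries. *Fgf8* exceeded *Fgfr2* in 1 of 6 P1 and 5 of 5 P4 libraries, and *Fgf7* exceeded *Fgf9* in 1 of 6 and 5 of 5. *Fgf3* exceeded *Fgf18* in 8 of 11 libraries, the exceptions being the 3 P1 untreated ones, and *Fgf9* exceeded *Fgf20* in 8 of 11. By group, the lowest mean was that of *Fgf7* at P1, with 23.64 per kb in treated and 36.9 in untreated libraries, and that of *Fgf20* at P4, with 28.9 and 44.3.

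**Figure D1:**
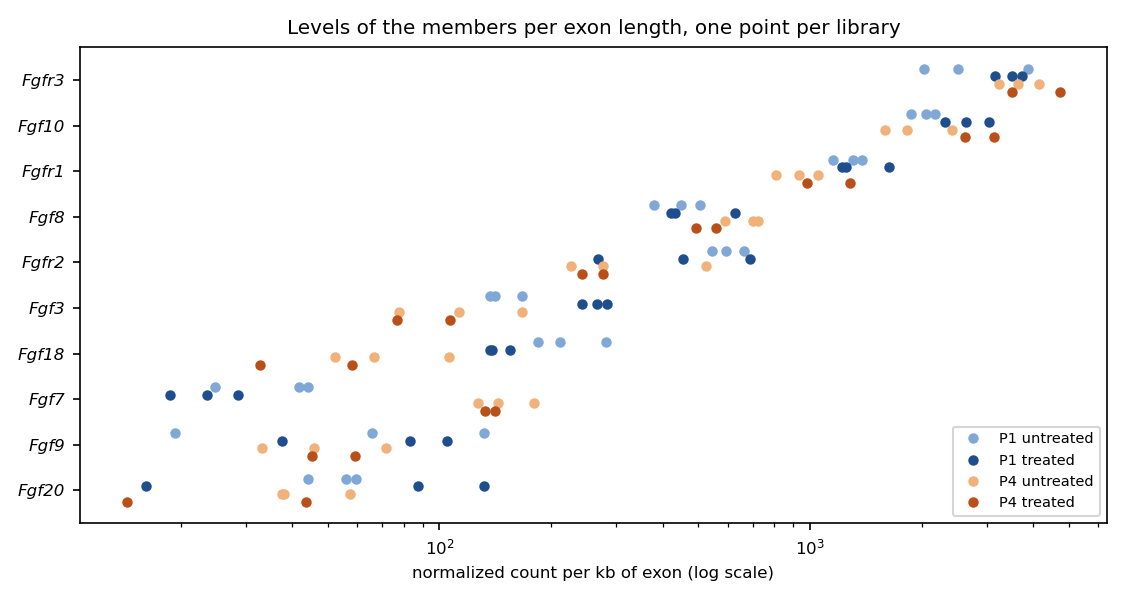
Normalized counts per kb of exon (log scale) of the 10 genes, one point per library, with the 4 groups in different colours. *Fgfr3* and *Fgf10* lie above the other genes, with means of 3464 and 2336 per kb, and *Fgf7* lies at 18.77 to 44.21 per kb in P1 libraries and 127.2 to 179.4 in P4 libraries.

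*Fgf10* made up most of the ligand signal. Its share of the length-corrected sum of the 7 ligands was 71.1% ± 0.473 (SD, n = 3) with treatment and 67.4% ± 1.56 (SD, n = 3) without it at P1. The P4 shares were 76.4% ± 3.68 (SD, n = 2) with treatment and 63.2% ± 7.94 (SD, n = 3) without it. Among the 3 receptors, *Fgfr3* held 58.8% ± 9.13 (SD, n = 3) of the sum in P1 untreated and 74.1% ± 2.98 (SD, n = 3) in P4 untreated libraries. In treated libraries its share was 65.6% ± 3.52 (SD, n = 3) at P1 and 74.4% ± 7.21 (SD, n = 2) at P4. These are shares of a sum, so one gene's share also moves when another gene changes.

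The clearest differences were between ages. In untreated libraries 4 of the 10 genes passed the test, which required an adjusted p below 0.05 from limma together with a minimum fold change. *Fgf18* and *Fgfr1* were higher at P1 and *Fgf7* and *Fgf8* were higher at P4. Over all genes tested, 19.9% passed in this comparison, with 10.5% higher at P1 and 9.38% lower. The ranges of the groups did not overlap for 5 of the 10 genes, against 41.3% of all genes. At an unadjusted p below 0.05 there were 3 higher and 2 lower at P1, against 35.5% of all genes. In treated libraries 3 of the 10 passed, *Fgf3*, *Fgf7* and *Fgf18*, against 11.1% of all genes (5.63% higher at P1 and 5.42% lower), and the ranges did not overlap for the same 3, against 43.1%. These libraries are of whole tissue, in which fewer cells of a type and less RNA per cell cannot be told apart. Comparisons of age and of treatment share groups of libraries, so they are not independent of each other.

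*Fgf7*, a ligand made by mesenchyme that signals to the epithelial form of Fgfr2, showed the largest age difference. It had 78, 131 and 139 normalized counts in the P1 untreated libraries and 400, 452 and 564 in the P4 untreated libraries. In treated libraries it had 74, 59 and 90 at P1 and 443 and 418 at P4. Every P4 library was above every P1 library, whatever the treatment. The level at P4 was 4.13 times that at P1 without Cre (log2 fold change of P1 against P4 -2.05 with a standard error of 0.257, limma adjusted p = 0.000655) and 5.81 times with it (-2.54 with a standard error of 0.287, limma adjusted p = 0.00118). Of 18 mesenchyme markers, 3 were called higher and 1 lower at P1 in the untreated comparison, beside 10.5% and 9.38% of all genes. Their median log2 fold change was 1.08. Their mean log2 level was 11.38 to 11.59 in P1 untreated and 10.48 to 10.86 in P4 untreated libraries, while their summed normalized counts overlapped, at 197695 to 240335 and 208872 to 242671. Over the 11 libraries the log2 level of *Fgf7* had a Pearson r of -0.35 with their mean log2 level, and -0.12 after subtraction of the group means. None of the markers was at 0 in any library, and their part in the *Fgf7* difference was not tested. The gene lies at chr2:126034658-126091185 within *Fam227b*, which is transcribed from the opposite strand and shares none of its exon bases.

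*Fgf18*, a ligand of developing cartilage and bone, moved in the opposite direction. It had 251, 219 and 335 normalized counts in P1 untreated and 62, 79 and 126 in P4 untreated libraries. In treated libraries it had 184, 163 and 165 at P1 and 39 and 69 at P4. The lowest P1 library stood above the highest P4 library. The gene was 3.08-fold higher at P1 without Cre (log2 fold change 1.62 with a standard error of 0.307, limma adjusted p = 0.00506) and 3.24-fold higher with it (1.70 with a standard error of 0.344, limma adjusted p = 0.0134). Without P4 treated replicate 1 the treated value fell to 1.29 and was no longer called (adjusted p = 0.119 from limma). *Fgf18* lies on the minus strand at chr11:33116970-33147400.

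*Fgf8*, the ligand of inner hair cells, had 606, 680 and 512 normalized counts in P1 untreated and 797, 977 and 946 in P4 untreated libraries. The untreated groups did not overlap, and the P4 level was 1.52 times that at P1 (log2 fold change -0.60 with a standard error of 0.174, limma adjusted p = 0.0337). In treated libraries the values were 569, 585 and 849 at P1 and 665 and 754 at P4, which overlap (-0.11, adjusted p = 0.761 from limma). The untreated call was lost without P1 untreated replicate 1 or 3 or P4 untreated replicate 2 or 3, with adjusted p of 0.0755, 0.116, 0.0936 and 0.0998 from limma. Of the 5 inner hair cell markers, 3 were called lower at P1 and none higher, beside 9.38% and 10.5% of all genes. Their summed normalized counts were 23030 to 30132 in P1 untreated and 30134 to 35938 in P4 untreated libraries. None of these markers was at 0. Over the 11 libraries, which share age as well as tissue, the log2 level of *Fgf8* had a Pearson r of 0.88 with the mean log2 level of 12 hair cell markers, and 0.84 after subtraction of the group means. Of these 12 markers, 1 was called higher and 3 lower at P1 in untreated libraries. With 8 pillar and Deiters cell markers r was 0.53, and 0.76 after that subtraction. The part of the number of hair cells in the *Fgf8* difference was not tested.

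*Fgf3* differed between ages where β-catenin was stabilized. It had 611, 651 and 557 normalized counts in P1 treated and 177 and 246 in P4 treated libraries, with no overlap. The P1 level was 2.89 times that at P4 (log2 fold change 1.53 with a standard error of 0.28, limma adjusted p = 0.00922). Untreated libraries had 315, 324 and 385 at P1 and 179, 383 and 260 at P4, which overlap (0.38, adjusted p = 0.311 from limma). Without P4 treated replicate 1 the difference between treated ages was 1.295 and was not called (adjusted p = 0.0845 from limma). The test of the difference between these 2 age effects, an interaction term, gave 1.15 on the log2 scale (95% confidence interval 0.32 to 1.99, unadjusted p = 0.0115, adjusted p = 0.82 from limma), so it did not pass. *Fgf3* lies at chr7:144838612-144843348.

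The treated P1 and P4 libraries also differed in sex. *Xist*, which is expressed from the inactive X chromosome, had 13 to 26 normalized counts in P1 treated, and 3268 and 4180 in P4 treated libraries. Untreated libraries had 16, 3030 and 2794 at P1 and 32 to 39 at P4. Between treated ages, sex and age therefore cannot be told apart. Nor can sex and treatment at P4, and the interaction term contains that comparison. With log2 *Xist* as a covariate, *Fgf3* (1.66, adjusted p = 0.217 from limma), *Fgf7* (-1.70, adjusted p = 0.143) and *Fgf18* (1.81, adjusted p = 0.25) kept their direction between treated ages and were not called. Of all genes tested, 28 were called between treated ages with this covariate, against 2034 without it. Loss of a call there is therefore not particular to the genes named here. Of the untreated libraries low in *Xist*, 1 was of P1 and 3 were of P4, so their ages can be set side by side only as values with no test. *Fgf7* had 78 counts in that P1 library against 400 to 564 in the P4 libraries, *Fgf18* had 251 against 62 to 126, and *Fgf3* had 315 against 179 to 383.

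**Figure D2:**
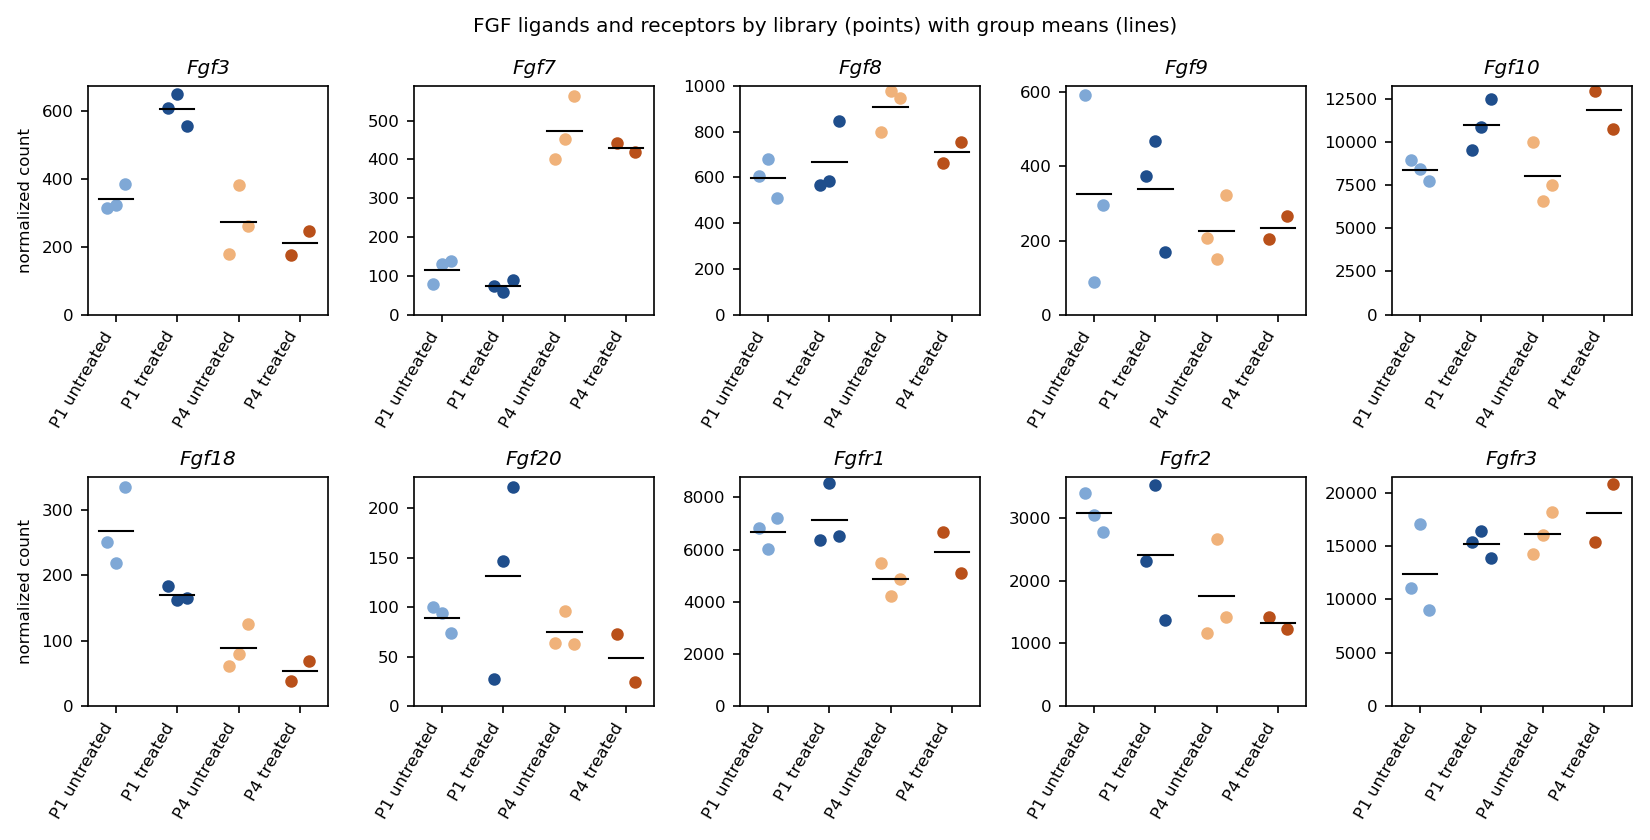
Normalized counts of each of the 10 genes by group, one point per library and a line at the group mean, each panel starting at 0. *Fgf7* lies at 400 to 564 in the P4 libraries and at 59 to 139 in the P1 libraries, and *Fgf3* is highest in the 3 P1 treated libraries, at 557 to 651.

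Of the receptors, *Fgfr1* differed with age in untreated libraries. It had 6827, 6025 and 7193 normalized counts at P1 and 5488, 4214 and 4866 at P4, without overlap, a 1.38-fold higher level at P1 (log2 fold change 0.46 with a standard error of 0.147, limma adjusted p = 0.047). The treated libraries had 6361, 8548 and 6535 at P1 and 6679 and 5105 at P4, which overlap (0.28, adjusted p = 0.306 from limma). The *Fgfr1* call was close to the threshold. With the replicate number as a block it had an adjusted p of 0.0743 from limma, without the filter on low values 0.0653, and it was lost without any 1 of 6 of the 11 libraries, with values of 0.37 to 0.54 and adjusted p of 0.0528 to 0.139 from limma. Those were P1 treated replicate 3, P1 untreated replicates 1, 2 and 3, and P4 untreated replicates 2 and 3.

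*Fgfr2*, the receptor of Fgf7 and Fgf10 in epithelia, had 3397, 3043 and 2781 normalized counts in P1 untreated and 1160, 2673 and 1415 in P4 untreated libraries. The groups did not overlap, but P4 untreated replicate 2 was close to the P1 libraries, and the difference of 0.90 on the log2 scale was not called (standard error of 0.344, limma adjusted p = 0.0881). With the replicate block it was called (adjusted p = 0.0419 from limma), as it was without P4 untreated replicate 2 (1.26, adjusted p = 0.0235) or without P1 treated replicate 3 (0.90, adjusted p = 0.0458). Treated libraries spread widely, with 2321, 3528 and 1371 at P1 and 1414 and 1237 at P4 (0.76, adjusted p = 0.233 from limma). Over the 11 libraries *Fgfr2* had an r of 0.73 with the mean level of the 18 mesenchyme markers, and 0.53 after subtraction of the group means. With 6 greater epithelial ridge markers r was 0.27, and -0.84 after that subtraction.

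*Fgfr3* had 11068, 17101 and 8962 normalized counts in P1 untreated and 14214, 16061 and 18211 in P4 untreated libraries. These overlap because of P1 untreated replicate 2, and the difference was not called (log2 fold change -0.43 with a standard error of 0.209, limma adjusted p = 0.168). Without that library the value was -0.69 and was called (adjusted p = 0.0167 from limma). Treated libraries had 15397, 16388 and 13926 at P1 and 15428 and 20841 at P4 (-0.24, adjusted p = 0.553 from limma). Over the 11 libraries *Fgfr3* had an r of 0.26 with the mean level of the 8 pillar and Deiters cell markers. After subtraction of the group means it was 0.17. With the 12 hair cell markers r was 0.72, and 0.75 after that subtraction. *Fgfr1* lies at chr8:25518759-25575718, *Fgfr2* at chr7:130162451-130266808 and *Fgfr3* at chr5:33721724-33737068. The sources do not state that counting used strand, or whether reads were counted or estimated per transcript, so how reads in exon bases shared with other genes were assigned is not known here. Such bases were 3.14% of the *Fgfr1* exons (*Gm16159*) and 9.93% of the *Fgfr3* exons (*G630022F23Rik*), while 6.14% of the *Fgfr2* exons belong also to *Ctbp2* on the same strand.

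**Figure D3:**
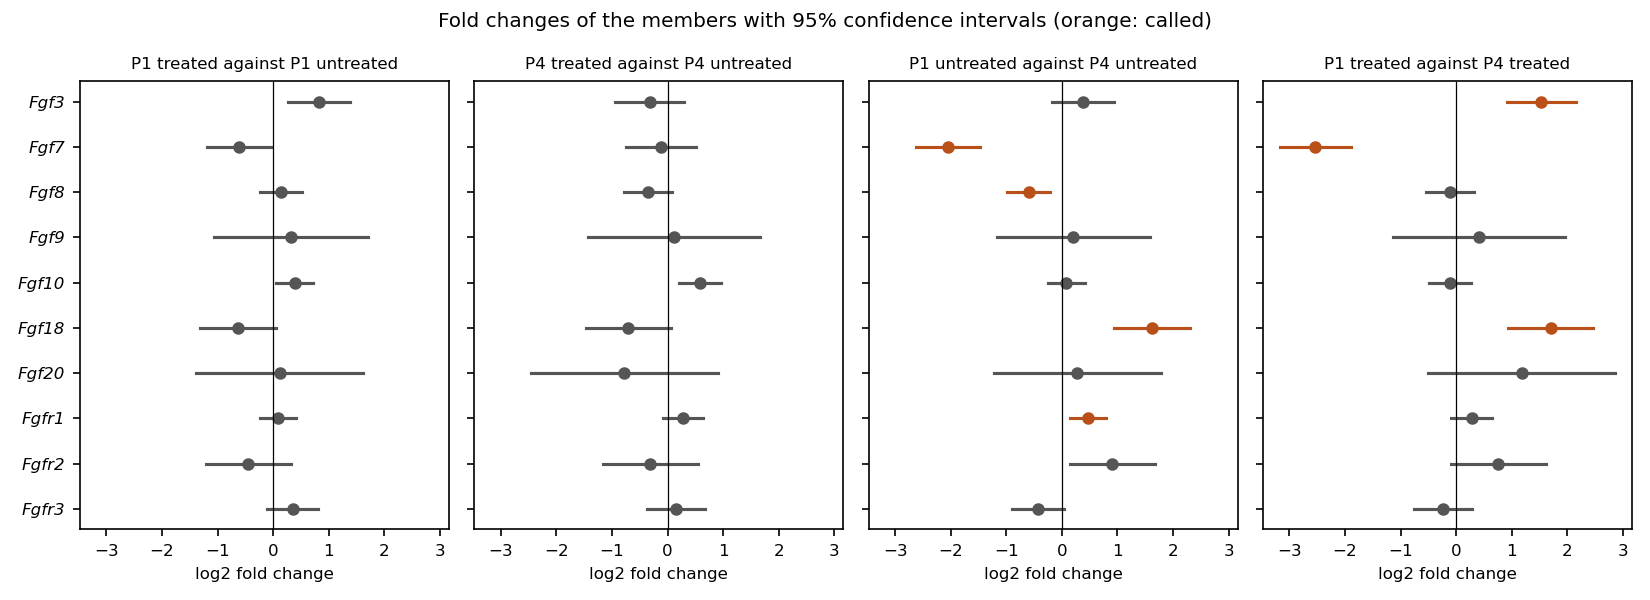
Log2 fold changes of the 10 genes in the 4 comparisons of groups, with 95% confidence intervals, orange where called. The called values are -2.05 (*Fgf7*), -0.60 (*Fgf8*), 0.46 (*Fgfr1*) and 1.62 (*Fgf18*) between untreated ages and -2.54 (*Fgf7*), 1.53 (*Fgf3*) and 1.70 (*Fgf18*) between treated ages, and none is called for treatment.

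Stabilization of β-catenin called none of the 10 genes at either age. At P1, 0.353% of all genes were called by limma, with 0.261% higher and 0.0924% lower in treated libraries. At P4 the share was 0.0543%, with 0.0326% higher and 0.0217% lower. The paper's DESeq2 model reported more genes for treatment at each age, so a member not called here is not shown to be unchanged. At an unadjusted p below 0.05, *Fgf3* and *Fgf10* were higher and *Fgf7* was lower at P1, against 12.2% of all genes, and *Fgf10* was higher at P4, against 11.6%. Between treated ages the same limit was met by *Fgf3*, *Fgf7* and *Fgf18*, against 27.5%. The groups did not overlap for 3 of the 10 genes at P1 and 2 at P4, against 15.3% and 33.5% of all genes. The median log2 fold change of the 10 was 0.13 at P1 and -0.21 at P4, while that of all genes was 0.00 at both ages.

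*Fgf10* was the one member with an unadjusted p below 0.05 at both ages. It had 9549, 10866 and 12485 normalized counts in P1 treated against 8935, 8432 and 7716 in P1 untreated libraries. At P4 it had 12914 and 10761 against 9970, 6549 and 7528. Treated libraries were above untreated ones at each age, without overlap. The P1 means were 10970 ± 1470 and 8361 ± 613 (SD, n = 3 each), so treated exceeded untreated by 0.39 on the log2 scale (95% confidence interval 0.05 to 0.72, unadjusted p = 0.0296, adjusted p = 0.345 from limma). At P4 they were 11840 ± 1520 (SD, n = 2) and 8016 ± 1760 (SD, n = 3), a difference of 0.58 (95% confidence interval 0.20 to 0.96, unadjusted p = 0.00658, adjusted p = 0.285 from limma). *Fgf10* lies at chr13:118714699-118792573, and 1.68% of its exon bases are shared with the antisense gene *Gm16263*.

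*Fgf3* at P1 was 1.78 times as high in treated as in untreated libraries, with the values given above, and the groups did not overlap. The means were 606.3 ± 47.2 and 341.3 ± 38.1 (SD, n = 3 each), which differ by 0.83 on the log2 scale (95% confidence interval 0.27 to 1.39, unadjusted p = 0.00754, adjusted p = 0.219 from limma). At P4 the treated libraries, at 177 and 246, overlapped with the untreated ones, at 179 to 383 (-0.32, adjusted p = 0.69 from limma). The P1 treated libraries were all low in *Xist*, as was P1 untreated replicate 1, in which *Fgf3* had 315 counts. The *Fgf3* window shown above was the one with the TCF/LEF letters, and the values do not bear on whether any factor binds there.

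*Fgf18* at P1 was lower in all 3 treated libraries, at 163 to 184 against 219 to 335 (log2 fold change -0.63, adjusted p = 0.456 from limma), and overlapped at P4 (-0.70, adjusted p = 0.464). *Fgf7* had -0.61 at P1 (unadjusted p = 0.0378, adjusted p = 0.37 from limma) and -0.12 at P4 (adjusted p = 0.905). *Fgf8* at P4 had 665 and 754 in treated against 797 to 977 in untreated libraries, with no overlap (-0.35, adjusted p = 0.513 from limma). Here too sex and treatment cannot be told apart. Mesenchyme and immune markers were also compared between treated and untreated libraries. The mean log2 level of the 18 mesenchyme markers was 9.63 to 11.17 in P1 treated against 11.38 to 11.59 in P1 untreated libraries, and their median log2 fold change was -1.33, with 1 called higher and none lower. Their summed normalized counts overlapped, at 157091 to 244274 and 197695 to 240335, and *Lum* was the most abundant of them. At P4 the mean log2 level of the mesenchyme markers was 9.48 and 9.96 in treated against 10.48 to 10.86 in untreated libraries, with a median of -0.90 and none called, and the sums were 197824 and 225858 against 208872 to 242671. The 10 immune markers had summed counts of 1743 to 3732 against 3919 to 5471 at P1 (median -1.07) and 3281 and 5303 against 4003 to 5973 at P4 (median -0.36), with none called at either age and none at 0. The part of either in the treatment values of the members, *Fgf8* and *Fgf10* at P4 included, was not tested.

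For the receptors the treatment differences were small against their spread. At P1 they were 0.09 for *Fgfr1* (95% confidence interval -0.24 to 0.41), -0.45 for *Fgfr2* (-1.22 to 0.31) and 0.35 for *Fgfr3* (-0.11 to 0.81), with adjusted p of 0.888, 0.686 and 0.565 from limma. At P4 they were 0.27 (-0.09 to 0.64), -0.31 (-1.16 to 0.55) and 0.16 (-0.36 to 0.68), with adjusted p of 0.543, 0.796 and 0.832. The intervals of *Fgfr2* leave room for a change of 2-fold. The interaction of treatment and age called no gene of 18400 by limma. The paper's DESeq2 model did report genes with a joint age and treatment pattern at an adjusted p below 0.05, *Lgr5* and *Edar* among them. The limma fit therefore recovered fewer such genes. At an unadjusted p below 0.05 it held 5.8% of all genes and, of the members, *Fgf3*.

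*Fgf9* and *Fgf20* were the most variable within groups. *Fgf9* had 375, 470 and 169 normalized counts in P1 treated and 592, 87 and 295 in P1 untreated libraries. At P4 it had 204 and 266 in treated and 206, 149 and 323 in untreated libraries. All groups overlapped, and adjusted p from limma was 0.748 to 0.969 in the 4 comparisons of groups. The level moved with 14 markers of the stria vascularis and Reissner membrane, the lateral wall and roof of the cochlear duct, whose summed counts ran from 1284 in P1 untreated replicate 2, where *Fgf9* was lowest, to 207512 in P1 untreated replicate 1, where it was highest. The sums at P1 were 2062 to 145203 in treated and 1284 to 207512 in untreated libraries, and at P4 2238 and 3024 in treated and 3791 to 14863 in untreated ones. *Esrrb*, *Dct* and *Mlana* were each at 0 in at least 1 library. Pearson's r of log2 *Fgf9* with the mean log2 level of these markers was 0.89 over the 11 libraries and 0.95 after subtraction of the group means. These points share a dissection, and the part of the lateral wall in the *Fgf9* level was not tested. *Fgf9* lies at chr14:58070671-58112854.

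**Figure D4:**
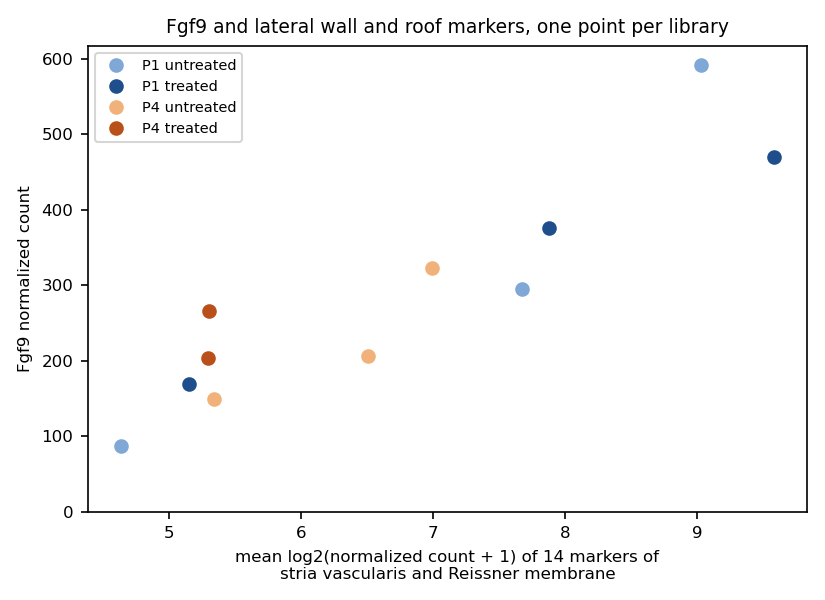
*Fgf9* normalized count of each of the 11 libraries (vertical axis, from 0) against the mean log2(normalized count + 1) of 14 markers of stria vascularis and Reissner membrane. The libraries lowest and highest in *Fgf9*, 87 and 592 counts, have marker levels of 4.64 and 9.03.

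*Fgf20*, the ligand of the early sensory domain, had 27, 147 and 221 normalized counts in P1 treated and 100, 94 and 74 in P1 untreated libraries. P4 treated libraries had 73 and 24 and P4 untreated 64, 96 and 63. The groups overlapped in all 4 comparisons, with adjusted p of 0.349 to 0.977 from limma. P1 treated replicate 1 stood far below the other two of its group, and without it the difference between treated ages was 2.08 and was called (adjusted p = 0.0346 from limma) instead of 1.18. *Fgf20* lies at chr8:40279166-40286953, and 12% of its exon bases are shared with *Micu3* on the opposite strand, and how reads in those bases were assigned is not known here. *Fgf8* lies at chr19:45736491-45742941.

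Among genes with a mean of at least 50 normalized counts, 14924 in all, the log2 levels most like those of each member over the 11 libraries were described by Pearson's r. The closest genes were *Pcyox1l* (0.98) and *Saraf* (0.98) for *Fgf7*, *Zbed5* (0.97) and *Pym1* (0.97) for *Fgf18*, *Poc1a* (0.93) and *Slc7a1* (0.93) for *Fgf3*, and *Pacsin1* (0.95) and *Dap3* (0.93) for *Fgf8*. They were *Entpd3* (0.96) and *Spns2* (0.96) for *Fgf9*, *Cstad* (0.95) and *Nup88* (0.95) for *Fgf10*, and *S1pr1* (0.91) and *Nek11* (0.84) for *Fgf20*. For the receptors they were *Dsel* (0.97) and *Prrc1* (0.95) for *Fgfr1*, *Bmp5* (0.96) and *Sh3bp1* (0.95) for *Fgfr2*, and *B3galt5* (0.96) and *Eps8l2* (0.94) for *Fgfr3*. The points share age and treatment, and these are the highest of many values.

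The rest of the pathway was read from 6 lists. Among 17 tested FGF target and feedback genes, 9 were called higher at P1 in untreated libraries and none lower. Of all genes, 10.5% were called higher and 9.38% lower. The median log2 fold change of the 17 was 0.62 beside 0.02 for all genes. *Spry1*, a feedback inhibitor of receptor signalling, had 2974, 2899 and 2963 normalized counts in P1 untreated and 1280, 1279 and 1335 in P4 untreated libraries. The P1 libraries were all above the P4 libraries (1.18, adjusted p = 0.000485 from limma). *Ier3*, an early response gene, had 1617, 2565 and 1965 against 355, 614 and 382 (2.20, adjusted p = 0.00046 from limma). The immediate early transcription factors *Egr1* (2.57, adjusted p = 0.000906) and *Fos* (2.88, adjusted p = 0.00181 from limma) were also higher at P1, and both answer many stimuli other than FGF. Between treated ages 4 of 17 were called, all higher at P1, beside 5.63% of all genes called higher and 5.42% lower. They were the same 4 genes, with log2 fold changes of 0.77 (*Spry1*), 1.91 (*Ier3*), 2.25 (*Egr1*) and 2.71 (*Fos*). The median of the 17 was 0.23. With log2 *Xist* as a covariate none of these 4 was called between treated ages, with adjusted p of 0.117 to 0.32 from limma. Without P4 treated replicate 1 or 3, *Egr1*, *Fos* and *Spry1* were not called (adjusted p of 0.0504 to 0.115 from limma), nor was *Spry1* in a fit of the compared groups alone (0.0802). Treatment called none at either age. *Spred2*, a further feedback inhibitor, had the largest t at P1, with 283, 326 and 272 against 467, 447 and 387 (-0.56, adjusted p = 0.184 from limma), and *Hey2* at P4 (0.50, adjusted p = 0.275).

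**Figure D5:**
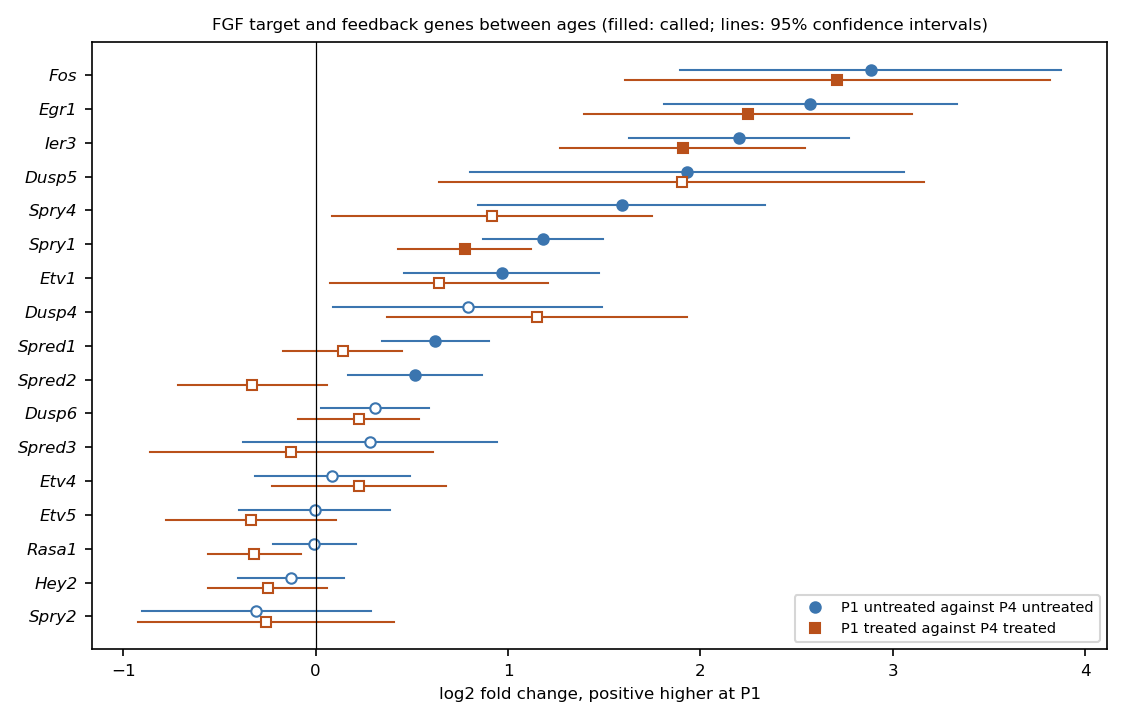
Log2 fold changes between P1 and P4 of the FGF target and feedback genes in untreated and in treated libraries, positive where higher at P1, with 95% confidence intervals and filled points where called. Called values reach 2.88 (*Fos*) in untreated libraries, and no gene is called lower at P1.

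The other receptors and co-receptors had 3 of 9 tested genes called higher at P1 in untreated libraries and none lower. Of all genes, 10.5% were called higher and 9.38% lower. *Flrt3*, a membrane protein that binds FGF receptors, had 2126, 2537 and 2229 normalized counts in P1 untreated and 364, 646 and 346 in P4 untreated libraries (2.40, adjusted p = 0.000152 from limma). *Flrt2* (1.46, adjusted p = 0.0136) and *Fgfr4* (1.35, adjusted p = 0.0111 from limma) also passed. *Flrt3* (1.67, adjusted p = 0.00408) and *Fgfr4* (1.28, adjusted p = 0.0366 from limma) passed between treated ages as well, beside 5.63% of all genes called higher there. The *Fgfr4* call between treated ages was lost with the replicate block (adjusted p = 0.0684 from limma), under 3 other settings (0.0608 to 0.276) and without any 1 of P1 treated replicates 1 and 2, P1 untreated replicate 2 and P4 treated replicates 1 and 3 (0.0504 to 0.232). With log2 *Xist* as a covariate *Flrt3* was not called between treated ages (adjusted p = 0.146 from limma), nor were *Flrt2* (0.0958) and *Fgfr4* (0.0933) between untreated ages. *Flrt2* between untreated ages was also lost without P4 untreated replicate 1 or 3 (0.0504 and 0.0533). At P1 *Flrt2* was lower in treated libraries without passing (-1.20, adjusted p = 0.192 from limma), and at P4 *Fgfr4* was (-0.83, adjusted p = 0.389).

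Of 20 heparan sulfate core proteins and enzymes, 9 were called higher and 3 lower at P1 in untreated libraries, with a median of 0.39, beside 10.5% and 9.38% of all genes. Between treated ages it was 3 and 2, beside 5.63% and 5.42%. The core protein *Gpc1* (0.80, adjusted p = 0.000706) and the chain polymerase *Ext2* (0.43, adjusted p = 0.00518 from limma) were higher at P1. The sulfotransferases *Hs6st1* (-0.72, adjusted p = 0.00182) and *Ndst1* (-0.75, adjusted p = 0.00201 from limma) were lower. All 4 also passed between treated ages, with 0.56, 0.45, -0.58 and -0.57, but none of those calls held with log2 *Xist* as a covariate (adjusted p of 0.219 to 0.424 from limma) or without P4 treated replicate 1 or 3 (0.06 to 0.163). *Gpc1*, *Ext2* and *Ndst1* were also lost when the compared groups were fitted alone (0.056 to 0.0581), and *Ndst1* with eBayes without trend (0.0522) and without P1 treated replicate 1 or 3 (0.0621 and 0.0574). Treatment called none of them. The gene of largest t was *Glce* at P1 (0.33, adjusted p = 0.386) and *Gpc1* at P4 (0.43, adjusted p = 0.272 from limma).

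Of 18 receptor adaptors and kinases, none was called higher and 3 lower at P1 in untreated libraries, *Map2k2* (-0.38, adjusted p = 0.00493), *Araf* (-0.34, adjusted p = 0.0056) and *Mapk3* (-0.40, adjusted p = 0.0363 from limma), beside 10.5% and 9.38% of all genes. The *Mapk3* call was lost with the replicate block (adjusted p = 0.0605 from limma), with no filter, without trend or with quantiles (0.0519 to 0.0666), and without any 1 of P1 untreated replicates 1 and 2 and P4 untreated replicates 1, 2 and 3 (0.0643 to 0.124). *Araf* fell below the minimum fold change with quantile normalization (-0.30). Between treated ages *Araf* (-0.42, adjusted p = 0.0077) and *Grb2* (-0.43, adjusted p = 0.033 from limma) were called, beside 5.42% of all genes lower. Both were lost with log2 *Xist* as a covariate (0.237 and 0.411), with the compared groups alone (0.0628 and 0.103) and without P4 treated replicate 3 (0.0915 and 0.228). *Grb2* was also lost without trend (0.066), with quantiles (0.06), and without P1 treated replicate 1 or 2, P1 untreated replicate 1 or P4 treated replicate 1 (0.0505 to 0.0977). Treatment called none. The scaffold *Ksr1* had 310, 484 and 476 normalized counts in P1 treated against 202, 177 and 228 in P1 untreated libraries, without overlap (1.04, adjusted p = 0.116 from limma). Without P1 treated replicate 1 it was called (adjusted p = 0.0299 from limma). *Mapk3* had -0.49 at P4 (adjusted p = 0.272).

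Of the other FGF ligands, 6 of 11 were tested. *Fgf15*, the endocrine ligand of bile acid control, had 26, 70 and 30 normalized counts in P1 untreated and 221, 214 and 279 in P4 untreated libraries (-2.60, adjusted p = 0.0012 from limma), and was lower at P1 in treated libraries too (-1.65, adjusted p = 0.0305). The treated call was lost with the replicate block (adjusted p = 0.0563 from limma), with the compared groups alone (0.0537), with log2 *Xist* as a covariate (0.616), and without any 1 of P1 treated replicates 1 and 2 and P4 treated replicates 1 and 3 (0.0618 to 0.209). None of the others was called. *Fgf17* had 46, 23 and 22 in P1 treated against 15, 16 and 9 in P1 untreated libraries (1.08, adjusted p = 0.306 from limma), and *Fgf16* had 0.81 at P4 (adjusted p = 0.6). The 4 FGF homologous factors, which stay inside the cell and do not act through FGF receptors in the same way, had none called in any comparison by limma. The largest t in each were those of *Fgf11* at P1 by treatment (-0.65, adjusted p = 0.355) and between untreated ages (0.60, adjusted p = 0.137), *Fgf12* at P4 (-1.62, adjusted p = 0.539) and *Fgf14* between treated ages (0.80, adjusted p = 0.515).

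The 12 hair cell markers summed to 32250 to 61738 normalized counts per library and the 8 pillar and Deiters cell markers to 44237 to 66483, with none at 0 in any library. Markers of neurons and glia summed to 22197 to 38552, although the preparation was meant to leave these cells and mesenchyme out, and *Slc17a7* was at 0 in 2 libraries. *Sox2*, whose regulatory sequence drives the Cre, had 4930 to 6006 normalized counts in P1 treated against 8042 to 10170 in P1 untreated libraries (-0.67, adjusted p = 0.03 from limma). At P4 it had 7577 and 7993 against 10101 to 10485 (-0.41, adjusted p = 0.272 from limma). The paper lists lower *Sox2* in knock-in alleles, Sox2-CreER among them, as a limitation, and only treated pups carried this allele. In every comparison of treated with untreated libraries, β-catenin stabilization and this allele therefore cannot be told apart. *Ctnnb1*, which encodes β-catenin, had 24107 to 25048 against 19820 to 25308 at P1 and 28951 and 31167 against 25724 to 30429 at P4, and counts per gene do not resolve the excised exon.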

How the data were processed

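RNA-seq was analysed in 11 of the 12 libraries described, and replicate 2 of the P4 treated group was not analysed here. Per the labels and the study's methods, RNA was amplified with SMARTer V4 and libraries made with ThruPLEX, and the submitters' processing notes name STAR 2.5.2b, featureCounts, DESeq2 and mm10. The study's methods describe quantification with Sailfish and Tximport, and featureCounts for quality control, and the sources do not say from which of these the table was made. The deposited values are a score unit, gene values that the authors scaled for library size and gave as whole numbers, so they are not raw counts and no count model was used. The spacing of low values was clear in 5 libraries and gave an estimate of 39.5 to 47.7 M counts in genes before scaling. In the others the spacing was not clear. The paper states a range of reads for all 12 samples, without values per library.

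The table had 27755 entries, 1 of them a repeated ID and 626 without a symbol. log2(normalized count + 1) was fitted by group with limma 3.58.1 in R 4.3.3 (eBayes with trend) over the 18400 genes with a mean of at least 10, and p-values were adjusted over all of them by the Benjamini-Hochberg method. Genes were called at an adjusted p below 0.05 and a change above 1.25-fold. Fold changes are on the log2(value + 1) scale, which understates those of low genes. All 4 groups shared 1 estimate of the spread. On simulated data with 100 genes changed by each factor, 59% of 2-fold changes were called for treatment at P1, 49% at P4, 66% between untreated and 49% between treated ages. The adjusted p depends on how many genes change. The data had 65 and 10 genes called for treatment at P1 and P4, and 3659 and 2034 between untreated and treated ages. The simulated shares are therefore not those of the data.

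Libraries of the same replicate number had residual correlations of 0.135, 0.136 and 0.115 between P1 and P4 untreated groups, which are separate pups. Elsewhere they had -0.0605 to 0.026. P1 treated replicate 2 and P1 untreated replicate 1, of different number, had 0.156, so these values do not show that the number marks a batch. The replicate number entered an alternative fit as a block. The others were pseudocounts of 0.5 and 5, no filter or a minimum of 50, eBayes without trend, the groups compared alone, scaling by median of ratios or quantiles, log2 *Xist* as a covariate, an adjusted p below 0.1, no minimum fold change, and leaving out each library.

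The members, lists and tests were chosen with earlier results of these data known. All 10 members are named. From each pathway list the text names up to 4 called genes, those of smallest adjusted p, and in a list without calls the gene of largest t, and for each member the 2 genes of highest r. Gene positions and exon overlaps are from RefSeq and GENCODE annotations of mm10, and promoter sequences from RefSeq.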

Additional observations from a re-analysis of the deposited data

How the results depend on the processing

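The count of members called was 0 for treatment at P1 and at P4 and for the interaction under every alternative and without any 1 library (0 to 0). Between untreated ages it was 4, and 2 with eBayes without trend and 2 with log2 *Xist* as a covariate, *Fgf7* and *Fgf18* in both cases, and 2 to 4 when libraries were left out in turn. Between treated ages it was 3, and 0 with log2 *Xist* as a covariate, where sex and age cannot be told apart, and 1 to 4 when libraries were left out. With the replicate block it stayed at 4 between untreated ages, where *Fgfr1* (0.46, adjusted p = 0.0743 from limma) was lost and *Fgfr2* (0.90, adjusted p = 0.0419) gained, and at 3 between treated ages, and it changed no other call of a member. Among the other pathway genes named it ended the calls of *Mapk3* between untreated ages and of *Fgf15* and *Fgfr4* between treated ages. *Fgf7* between either pair of ages and *Fgf18* between untreated ages were called without any 1 library. With log2 *Xist* as a covariate 28 of all genes were called between treated ages, against 2034 in the main fit. Between untreated ages it was 1807 against 3659. With that covariate the sign turned for *Fgf9* (-0.89) and *Fgf20* (-0.12) by treatment at P1, *Fgf9* between treated ages (-1.53), and *Fgf7* (0.78) and *Fgf9* (-2.74) in the interaction. With the replicate block it turned for *Fgf9* by treatment at P4 (-0.12). None of these values was called, and the cause was not tested. Leaving out 1 library turned the sign of further values that were not called. By treatment at P1 the ranges were -0.48 to 1.02 for *Fgf20*, -0.0452 to 0.24 for *Fgf8*, -0.43 to 0.95 for *Fgf9* and -0.0475 to 0.17 for *Fgfr1*. By treatment at P4 they were -0.23 to 0.0172 for *Fgf7*, -0.15 to 0.41 for *Fgf9*, -1.56 to 0.002 for *Fgf20*, -0.56 to 0.0458 for *Fgfr2* and -0.0597 to 0.37 for *Fgfr3*. Between untreated ages they were -0.0539 to 0.25 for *Fgf10* and -0.42 to 0.96 for *Fgf9*, and between treated ages -0.24 to 0.0187 for *Fgf10* and -0.35 to 1.96 for *Fgf14*. In the interaction they were -0.33 to 0.48 for *Fgf18*, -0.55 to 0.83 for *Fgf9*, -0.38 to 0.0076 for *Fgfr1*, -0.50 to 0.21 for *Fgfr2* and -0.024 to 0.45 for *Fgfr3*. Without a P4 treated library 1 library is left in that group and is assumed to vary like the others. Groups of 2 and 3 limit what can be called. On simulated data 49% of 2-fold changes were called for treatment at P4. More genes changed there than were called for treatment in the data, so that share does not carry over.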
